A study of Homo sapiens with 6 samples.

Results

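The genes described here are TIPARP and 9 of its relatives in the PARP family, the ADP-ribosyltransferases PARP1, PARP2, PARP4, PARP9, PARP10, PARP12, PARP14, TNKS and TNKS2. They were chosen by symbol, and all 10 were found among the 53826 entries of the deposited tables. RNA-seq was performed on the human lung adenocarcinoma cell line A549, with 3 libraries of A549-TIPARP cells (stable TIPARP-overexpression) and 3 libraries of A549-GFP cells (stable GFP-overexpression). Each line was made by transduction of A549 cells with a pMXs retroviral vector, which carried the TIPARP coding region in one line and GFP in the other, so both lines went through a transduction. No untransduced A549 cells were analysed here, and the labels do not say whether the libraries of a line came from separate transductions, so the p-values measure the spread between these libraries.

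PARP family proteins use NAD+ to attach ADP-ribose to proteins and nucleic acids. PARP1, PARP2 and the tankyrases TNKS and TNKS2 build chains of ADP-ribose, whereas TIPARP, also called PARP7, and most other members attach a single unit. TIPARP is induced by the aryl hydrocarbon receptor AHR, a sensor of dioxin and other ligands, and its protein acts back on AHR as a repressor. PARP9, PARP10, PARP12 and PARP14 belong to the members that interferon induces in many cell types.

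Values are given in TPM, a measure that corrects for transcript length and library total, so that levels of different genes may be set side by side. Where 3 values are given for a line, they stand in the order of replicates 1, 2 and 3. The lowest value of the tables is 1 TPM, and entries listed there may lie anywhere at or below it. Of the 10 genes, 9 passed the filter of TPM above 2 in at least 1 library, which left 13181 analysed genes. PARP10 was listed at the lowest value in all 6 libraries and was not tested. The tables give TPM and no read counts, so the depth is unknown and counting error could not be computed. In RNA from whole cultures, fewer cells of a kind and less RNA per cell cannot be told apart.

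The labelled cells carried the RNA of A549 cells. KRT8, a keratin of simple epithelium, ranged from 3855 to 9287 TPM, and NQO1, a detoxifying enzyme that is abundant in this line, from 1277 to 1487 TPM. CDKN2A and CDKN2B, which are deleted in A549 cells, and the endothelial markers PECAM1, CDH5 and VWF were listed at the lowest value throughout, as were 6 of 7 markers of alveolar type 2 cells, SFTPC and NKX2-1 among them. Of the leukocyte markers, PTPRC and CD3E were at the lowest value in all libraries, and CD14 reached 5.63 TPM. KRT19, another epithelial keratin, was higher in A549-TIPARP by 1.75 on log2(TPM + 1), with no overlap of the lines (limma adjusted p = 0.283). A549-GFP replicate 2 stood apart from the other libraries. Across genes it deviated from its line by a root mean square of 0.621 in log2 units, against 0.185 to 0.400 in the other 5 libraries, and it held the highest TPM of the 6 libraries for 52.0% of the analysed genes. Values from a limma fit without this library are given beside many of the results below.

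Of the 7 members with a promoter window, 3 carried a copy of the interferon-stimulated response element near an annotated start site in the reference genome, and these are shown because the same genes form one of the groups described below. The stretches come from RefSeq promoter windows (GRCh38.p14) of 250 bases before and 50 bases after each annotated start, and PARP4, PARP10 and TNKS were not searched. The element was searched as GAAA, any 2 bases and GAAA, or on the other strand as TTTC, any 2 bases and TTTC, and it was present in 3.57% of all 35116 windows, in 4.38% of all genes with a window and in 12 of 17 such genes in the list of interferon-induced genes. PARP9 (chr3:122564291-122564400, minus strand), PARP12 (chr7:140062927-140063051, minus strand) and PARP14 (chr3:122680739-122680848, plus strand) read, 5′ to 3′ with the element in capitals:
PARP9: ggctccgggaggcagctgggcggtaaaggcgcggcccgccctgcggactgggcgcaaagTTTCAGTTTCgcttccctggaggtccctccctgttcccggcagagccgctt
PARP12: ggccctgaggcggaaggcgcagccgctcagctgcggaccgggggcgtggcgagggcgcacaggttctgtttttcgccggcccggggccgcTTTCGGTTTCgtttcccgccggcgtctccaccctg
PARP14: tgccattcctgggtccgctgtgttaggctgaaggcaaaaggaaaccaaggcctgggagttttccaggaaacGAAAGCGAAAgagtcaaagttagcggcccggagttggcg
The element began 41 bases before the second annotated start of PARP9, at 122564300, 10 bases before that of PARP12 and 29 bases before that of PARP14. The other annotated start of PARP9, at 122564784, is the outer end of the gene and had no copy in its window. The copy at 122564332 to 122564341 on chromosome 3 spans the start of DTX3L at 122564338, on the opposite strand. DTX3L encodes the ubiquitin ligase partner of PARP9. The windows of TIPARP, PARP1, PARP2 and TNKS2 and those of the 7 other PARP family genes named below held no copy.

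A second stretch is shown for TIPARP (chr3:156674360-156674489, plus strand), because it belongs to the endogenous gene and not to the coding region in the vector. The core of the response element bound by AHR, GCGTG or CACGC on the other strand, is in capitals:
TIPARP: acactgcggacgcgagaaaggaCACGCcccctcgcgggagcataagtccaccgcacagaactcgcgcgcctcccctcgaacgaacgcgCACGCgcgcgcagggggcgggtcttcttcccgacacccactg
The copies began 208 and 142 bases before the first of 3 annotated start sites, at 156674590, and the windows of the other start sites held none. The core is short, and 40.6% of all genes with a window held it, as did 5 of the 7 members with a window.

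TIPARP (Entrez Gene ID 25976, chromosome 3, 156674590 to 156706770 in RefSeq on hg38, 6 exons in the canonical transcript of GENCODE 44) was the 1 member of the 9 analysed that passed the test. Its level was 6.79, 11.4 and 3.68 TPM in A549-GFP. The A549-TIPARP libraries held 131, 90.5 and 123 TPM. Every A549-TIPARP library was thus above every A549-GFP library, with no overlap. On log2(TPM + 1), TIPARP rose by 3.90 (standard error 0.34, 95% interval 3.12 to 4.68), or 14.9-fold, with a limma adjusted p of 0.0125 over all analysed genes. When single libraries were dropped, the difference stayed between 3.54 and 4.24, while the adjusted p ranged from 0.0331 to 0.192 and was under 0.05 in 1 of the 6 fits, that without A549-GFP replicate 2. The adjusted p was 0.0965 without a filter on low values, and 0.513 with the experiment number of the sample titles as a replicate block, so that the call was lost in both fits.

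Reads of the transgene and of the endogenous gene were counted together, so the values do not separate them. The vector carried only the coding region, so the transcript length that TPM corrects for need not be that of the transgene. Ranks, shares and ratios of TIPARP against other genes in A549-TIPARP cells are given with that limit. The antisense gene TIPARP-AS1, which overlaps the start of TIPARP on the other strand, was at the lowest value in 5 libraries and at 1.45 TPM in A549-TIPARP replicate 3. Within the family the rise changed the order of the levels. TIPARP ranked 5, 5 and 8 among the 10 members in A549-GFP, and 1, 2 and 1 in A549-TIPARP. Among all analysed genes its level lay above 22.9% to 38.8% of genes in A549-GFP libraries and above 88.6% to 92.4% in A549-TIPARP libraries.

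Taking the TPM of the members together shows the same shift as a share. With entries at the lowest value counted as 0, the summed TPM of the members was 212.7 ± 23.6 (SD, n = 3) in A549-GFP cells and 305.4 ± 21.4 (SD, n = 3) in A549-TIPARP cells. TIPARP made up 2.88%, 5.31% and 1.95% of this sum in A549-GFP, and 39.9%, 29.7% and 43.1% in A549-TIPARP. Without TIPARP the sum was 205.5 ± 22.2 TPM (SD, n = 3) in A549-GFP cells and 190.8 ± 26.5 TPM (SD, n = 3) in A549-TIPARP cells, a difference smaller than the spread between libraries. In A549-TIPARP replicates 1 and 3, TIPARP mRNA exceeded PARP1 mRNA by 1.48 and 1.71 times, and in replicate 2 it was 0.896 times the level of PARP1.

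**Figure D1:**
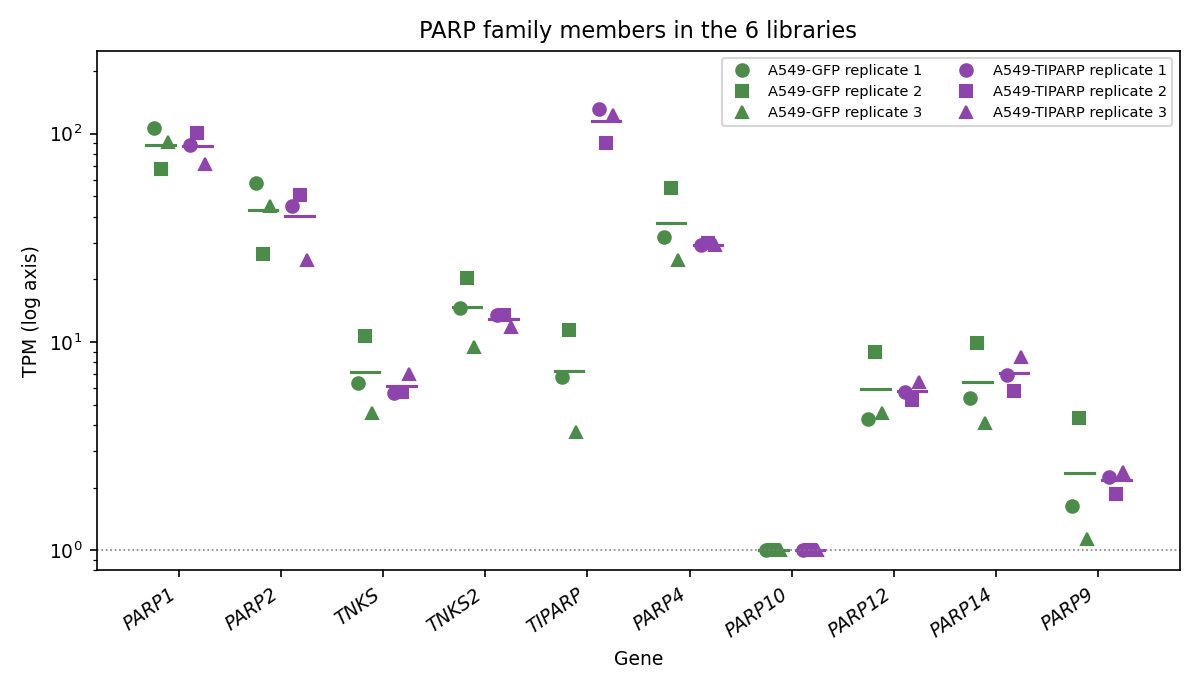
TPM of the 10 members (log axis) in each library, with green for A549-GFP, purple for A549-TIPARP, circles, squares and triangles for replicates 1, 2 and 3, bars for the mean of a line and a dotted line at the lowest value of 1 TPM. TIPARP is the gene whose lines are apart, with A549-GFP libraries between 3.68 and 11.4 TPM and A549-TIPARP libraries between 90.5 and 131 TPM, and the green square of A549-GFP replicate 2 is the highest point for 6 members.

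**Figure D2:**
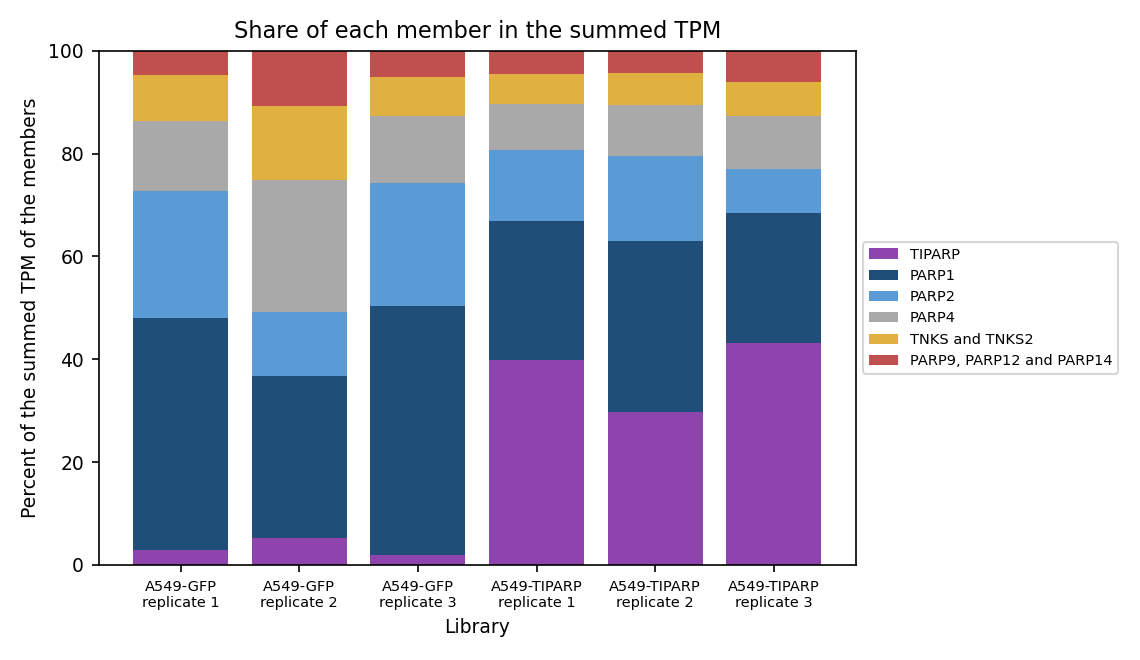
Percent of the summed TPM of the members taken by each gene or gene group in each library, with PARP10 left out because it was at the lowest value. TIPARP takes between 1.95% and 5.31% of the sum in A549-GFP libraries and between 29.7% and 43.1% in A549-TIPARP libraries.

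None of the other 8 analysed members passed the test. Of the 9 analysed members, with the transduced gene TIPARP included, 4 had a higher mean log2(TPM + 1) in A549-TIPARP, as did 39.6% of all analysed genes. All counts of genes by direction are of these log2 means, and for genes with close means, PARP9 and PARP12 among them, the means of TPM itself can have the other order. By limma, 0 of the 8 had an adjusted p under 0.05 and 0 had an unadjusted p under 0.05, where 0.0152% and 3.85% of all analysed genes did. All 8 had overlapping libraries, and over all analysed genes the libraries of the lines did not overlap for 8.91%. The median difference of the 9 analysed members, again with TIPARP, was -0.01 on log2(TPM + 1), and that of all analysed genes was -0.06. Without A549-GFP replicate 2, 7 of the 9, TIPARP among them, had a higher log2 mean in A549-TIPARP, as did 57.4% of all analysed genes. The medians were then 0.16 and 0.04. In that fit PARP9 had an unadjusted p of 0.0329 (limma adjusted p = 0.429), and 10.5% of all analysed genes had an unadjusted p under 0.05. A p that misses the threshold does not show that the lines had the same level, and the interval of each gene is given for that reason.

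PARP1 and PARP2 are the enzymes that sense DNA breaks. PARP1 (chromosome 1, 226360691 to 226408093) was at 107, 67.4 and 91.4 TPM in A549-GFP and at 88.4, 101 and 71.8 TPM in A549-TIPARP. It was the most abundant member in A549-GFP cells, above PARP2 in all 3 libraries without overlap of their ranges. The difference of the lines for PARP1 was -0.01 on log2(TPM + 1), with a 95% interval from -0.52 to 0.49 and a limma adjusted p of 0.998. It was -0.19 without A549-GFP replicate 2.

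PARP2 (chromosome 14, 20343635 to 20357904) was at 58.2, 26.5 and 44.9 TPM in A549-GFP and at 45.1, 50.7 and 24.7 TPM in A549-TIPARP. Replicate 3 of A549-TIPARP and replicate 2 of A549-GFP held its lowest values, as they did for PARP1. The difference of the lines was -0.09 (95% interval -0.89 to 0.70, limma adjusted p = 0.997), and -0.40 without A549-GFP replicate 2. PARP1 mRNA was 2.14 ± 0.37 times that of PARP2 in A549-GFP cells and 2.29 ± 0.54 times in A549-TIPARP cells (mean ± SD, n = 3).

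The tankyrases TNKS and TNKS2 mark proteins such as the axins for degradation and release TERF1 from telomeres. TNKS (chromosome 8, 9555912 to 9782346) was at 6.34, 10.7 and 4.56 TPM in A549-GFP and at 5.69, 5.77 and 7.01 TPM in A549-TIPARP. TNKS2 (chromosome 10, 91798426 to 91865475) was at 14.6, 20.2 and 9.46 TPM in A549-GFP and at 13.5, 13.5 and 11.9 TPM in A549-TIPARP. For both genes the A549-TIPARP libraries lay inside the range of the A549-GFP libraries. The differences of the lines were -0.13 for TNKS (95% interval -0.81 to 0.54) and -0.12 for TNKS2 (95% interval -0.75 to 0.51), with limma adjusted p of 0.994 for both. Without A549-GFP replicate 2 they turned to 0.16 and 0.13. TNKS2 was above TNKS in every library, by 2.08 ± 0.21 times in A549-GFP cells and 2.14 ± 0.39 times in A549-TIPARP cells (mean ± SD, n = 3).

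PARP4, the PARP of the vault particle, ranked 3 among the members in A549-GFP cells. PARP4 (chromosome 13, 24420931 to 24512778) was at 32.0, 54.8 and 24.8 TPM in A549-GFP. In A549-TIPARP it was at 29.2, 29.8 and 29.1 TPM, all inside the A549-GFP range. The difference of -0.26 (95% interval -0.89 to 0.38, limma adjusted p = 0.994) rested on A549-GFP replicate 2, without which it was 0.06. The ranges of PARP2 and PARP4 overlapped in both lines, with PARP2 higher in 2 of 3 libraries of each.

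PARP9, PARP12 and PARP14, the genes with the element shown above, were expressed at low levels. PARP9 lacks catalytic activity of the usual kind and works with DTX3L, PARP12 is a zinc finger protein of the Golgi, and PARP14 binds ADP-ribose through its macrodomains. PARP9 (chromosome 3, 122527924 to 122564784) was at 1.64, 4.32 and 1.13 TPM in A549-GFP and at 2.25, 1.86 and 2.39 TPM in A549-TIPARP. Replicates 1 and 3 of A549-GFP lay close to the lowest value of the tables, and its mean was above that of PARP10 only.

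PARP12 (chromosome 7, 140023749 to 140062951) was at 4.29, 8.91 and 4.56 TPM in A549-GFP and at 5.74, 5.25 and 6.43 TPM in A549-TIPARP. PARP14 (chromosome 3, 122680839 to 122730840) was at 5.36, 9.84 and 4.09 TPM in A549-GFP and at 6.91, 5.84 and 8.50 TPM in A549-TIPARP. For PARP9, PARP12 and PARP14 alike, A549-GFP replicate 2 was the highest of the 6 libraries and the other A549-GFP libraries were the lowest. The differences of the lines were 0.03 for PARP9 (95% interval -0.75 to 0.80), 0.03 for PARP12 (-0.61 to 0.68) and 0.18 for PARP14 (-0.52 to 0.89), with limma adjusted p of 0.998, 0.998 and 0.994. Without A549-GFP replicate 2 they were 0.41, 0.32 and 0.49, with limma adjusted p of 0.429, 0.526 and 0.484.

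PARP10, a transferase that can move to DNA repair sites, lies on chromosome 8 (143977158 to 144012764) and overlaps GRINA and SPATC1 on the other strand. It was listed at the lowest value in all 6 libraries, so its level was not resolved, and no fold is given. The sources used here do not state whether the counting used the strand of the reads.

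**Figure D3:**
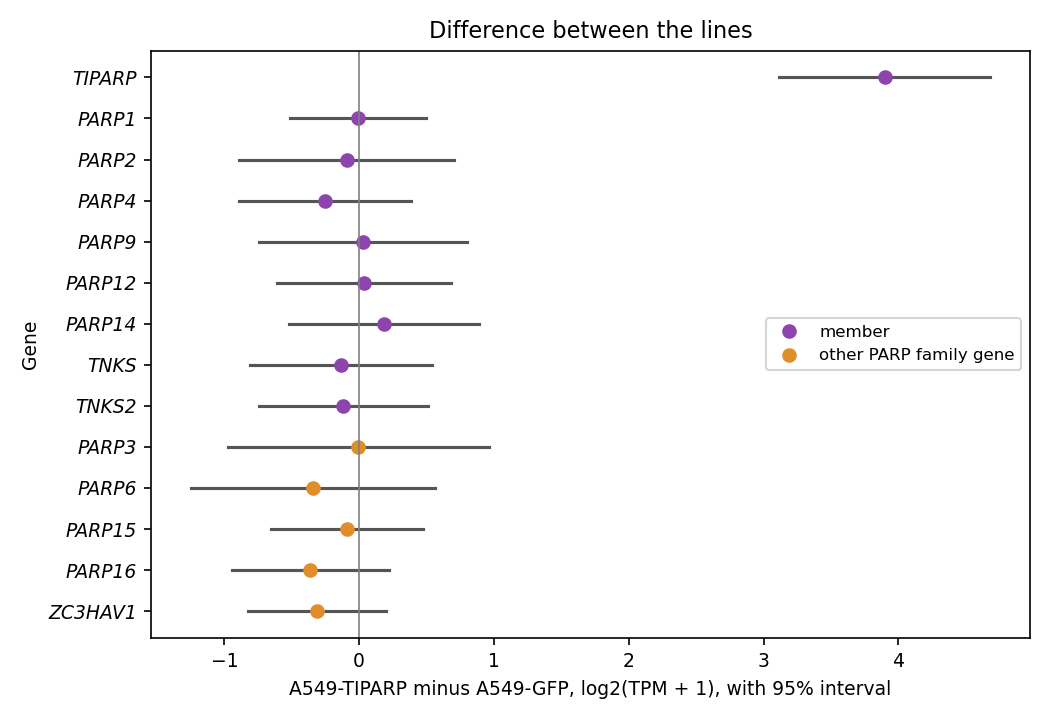
Difference between the lines for the 14 analysed PARP family genes, with points for A549-TIPARP minus A549-GFP on log2(TPM + 1) and lines for the 95% interval from limma. The interval of TIPARP runs from 3.12 to 4.68, and those of the 13 other genes include 0.

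Apart from TIPARP, the order of the levels differed between the lines only in TNKS and PARP14, which changed places, and many neighbours overlapped. In A549-GFP cells the means ran PARP1, PARP2, PARP4, TNKS2, TIPARP, TNKS, PARP14, PARP12, PARP9. The ranges of neighbours did not overlap between PARP1 and PARP2 and between PARP4 and TNKS2, and they overlapped for all neighbours from TNKS2 to PARP9. In A549-TIPARP cells TIPARP led with 115 ± 21.3 TPM, ahead of PARP1 with 87.1 ± 14.6 TPM (mean ± SD, n = 3), and their ranges overlapped. There PARP2 and PARP4, PARP14 and TNKS, and TNKS and PARP12 overlapped as well.

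The members also varied between libraries of 1 line. A549-GFP replicate 2 had the highest TPM of the 6 libraries for 6 of the 8 members other than TIPARP, a share to be read against the 52.0% of all analysed genes. They were PARP4, PARP9, PARP12, PARP14, TNKS and TNKS2. PARP9 in that library was 3.12 times the mean of the other A549-GFP libraries, and PARP12, PARP14, TNKS, PARP4 and TNKS2 were 2.01, 2.08, 1.97, 1.93 and 1.68 times it, where the median of all analysed genes was 1.29 times. TIPARP itself was 2.17 times the mean of the other A549-GFP libraries there. PARP1 and PARP2 went the other way, with 0.681 and 0.514 times. It was the lowest of the 6 libraries for 1 of the 8 members, PARP1, against 13.7% of all analysed genes, and A549-TIPARP replicate 3 was the lowest for 1, PARP2, against 23.4%. After a rescaling that set the median ratio of every library to the mean of the 6 alike, A549-GFP replicate 2 was the highest for 5 of the 8 members, against 31.4% of all analysed genes, and the lowest for 2, against 31.0%. The summed TPM of the 6 epithelial markers was 10774 in A549-GFP replicate 2 and between 18544 and 23392 in the other 5 libraries. The list was not uniform, since KRT8, KRT18 and KRT19 had their lowest value of the 6 libraries there and KRT7 and CDH1 their highest. The part of these markers in the values of the members was not tested.

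**Figure D4:**
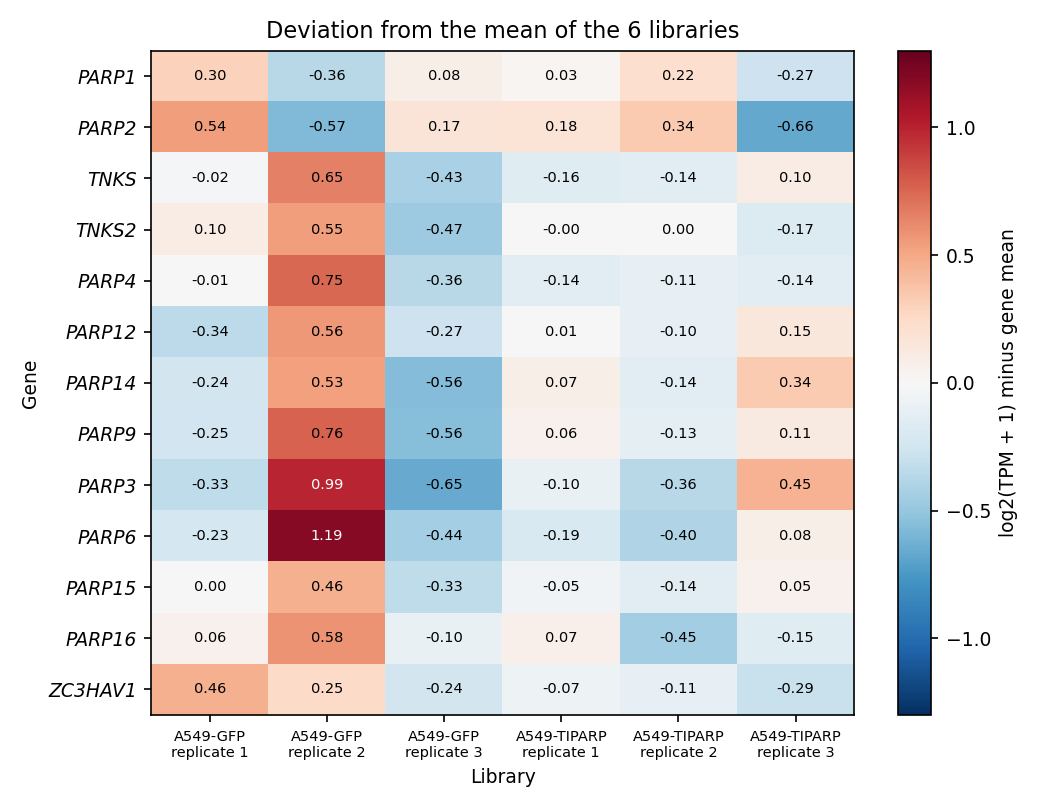
Deviation of log2(TPM + 1) from the mean of the 6 libraries, for the 8 analysed members other than TIPARP and 5 further PARP family genes (rows) in each library (columns), with red above and blue below the gene mean. A549-GFP replicate 2 is at 0.53 to 0.76 for TNKS, TNKS2, PARP4, PARP12, PARP14 and PARP9, whereas PARP1 and PARP2 are at -0.36 and -0.57 in it and at -0.27 and -0.66 in A549-TIPARP replicate 3.

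Of the 7 other PARP family genes, 5 were analysed, and none passed the test (0 with an adjusted p and 0 with an unadjusted p under 0.05 by limma, against 0.0152% and 3.85% of all analysed genes). The log2 mean of all 5 was lower in A549-TIPARP, where that of 60.4% of all analysed genes was, with a median difference of -0.31 on log2(TPM + 1). The log2 mean was lower for 2 of the 5, PARP16 and ZC3HAV1, when A549-GFP replicate 2 was left out, and the median was 0.12. PARP6, a transferase studied mostly in neurons, had 36.4, 99.2 and 31.4 TPM in A549-GFP and 37.5, 32.5 and 45.4 TPM in A549-TIPARP, and its difference of -0.34 became 0.17 without A549-GFP replicate 2. PARP3, which acts in the repair of DNA breaks, had 11.5, 30.3 and 8.97 TPM in A549-GFP and 13.6, 11.2 and 20.5 TPM in A549-TIPARP. Its difference of -0.01 became 0.49 without A549-GFP replicate 2.

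PARP16, a transferase of the endoplasmic reticulum, had 13.0, 19.1 and 11.6 TPM in A549-GFP and 13.1, 8.81 and 11.1 TPM in A549-TIPARP, a difference of -0.36 (95% interval -0.94 to 0.22), and -0.16 without A549-GFP replicate 2. ZC3HAV1, the antiviral zinc finger protein that is also called PARP13 and lacks transferase activity, had 35.9, 30.9 and 21.8 TPM in A549-GFP and 24.6, 23.9 and 20.9 TPM in A549-TIPARP, a difference of -0.31 (95% interval -0.83 to 0.20). For PARP16 and ZC3HAV1 the difference stayed negative in all 13 alternatives, with limma adjusted p of 0.582 or more throughout. With each library left out it ran from -0.50 to -0.16 for PARP16 and from -0.51 to -0.16 for ZC3HAV1. The unadjusted limma p of ZC3HAV1 was 0.0285 without A549-GFP replicate 3, where 1085 of 13181 genes had one under 0.05. PARP15, which lies with DTX3L, PARP9 and PARP14 in 203 kb of chromosome 3, ranged from 9.02 to 16.3 TPM and had a difference of -0.09, which became 0.12 without A549-GFP replicate 2. PARP8 and PARP11 were listed at the lowest value in all 6 libraries.

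The partners of the members were taken from short lists. The shares of all analysed genes to set beside their counts are 0.0152% with an adjusted p under 0.05, 3.85% with an unadjusted p under 0.05 and 39.6% with a higher log2 mean in A549-TIPARP, and without A549-GFP replicate 2 they are 10.5% for the unadjusted p and 57.4% for the higher log2 mean. Of 12 genes that work with PARP1 and PARP2 in DNA break repair, all 12 were analysed, the log2 mean in A549-TIPARP was higher for 6 and lower for 6, and 0 passed the test at an adjusted or an unadjusted p under 0.05 by limma. The median difference was 0.01 on log2(TPM + 1). The log2 mean was higher for 4 and lower for 8 without A549-GFP replicate 2, with a median of -0.07. In that fit 1 of the 12, APLF, had an unadjusted p under 0.05 (difference 0.27, limma adjusted p = 0.425). APLF had passed the filter only through A549-GFP replicate 2, at 2.04 TPM, and its other libraries were at 1 to 1.52 TPM. Its p in that fit thus rests on values at or near the lowest value. The ligase LIG3 differed by -0.20. HPF1, chosen with its values in view, directs PARP1 and PARP2 to serine residues and had 39.8, 25.0 and 35.6 TPM in A549-GFP and 34.7, 39.0 and 27.3 TPM in A549-TIPARP. Its low libraries were thus those of PARP1 and PARP2, and its difference of 0.02 became -0.17 without A549-GFP replicate 2.

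Of 9 genes that remove ADP-ribose, 8 were analysed and 0 passed at an adjusted or an unadjusted p under 0.05 by limma, against 0.0152% and 3.85%, with a median difference of -0.04, or 0.08 without A549-GFP replicate 2. MACROD1, a hydrolase that removes single ADP-ribose units, differed by 0.34, or 0.70 without that library, and NUDT5, which cleaves free ADP-ribose, by -0.21. Of 19 partners and substrates of the tankyrases, 17 were analysed, 6 had a higher and 11 a lower log2 mean, and 0 passed at an adjusted or an unadjusted p under 0.05 by limma, against 0.0152% and 3.85%, with a median difference of -0.05. Without A549-GFP replicate 2, 10 had a higher and 7 a lower log2 mean, against 57.4% higher, with a median of 0.03. TNKS1BP1, a tankyrase-binding protein, then had a difference of 0.66 with an unadjusted p of 0.0035 (limma adjusted p = 0.240), against 0.12 with all libraries. In the fit with all libraries the largest were 0.51 for FNBP1 and -0.33 for AMOTL1, a junction protein of the angiomotin family that tankyrases mark for degradation.

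The partners of PARP9 and of the vault were described in the same way. DTX3L had 5.06, 8.98 and 3.57 TPM in A549-GFP and 5.47, 4.57 and 5.31 TPM in A549-TIPARP, a difference of -0.09 (limma adjusted p = 0.995) that became 0.21 without A549-GFP replicate 2. Its highest library was A549-GFP replicate 2, as for PARP9. MVP, the main protein of the vault that holds PARP4, had 166, 404 and 197 TPM in A549-GFP and 249, 232 and 291 TPM in A549-TIPARP, a difference of 0.11. With A549-GFP replicate 2 left out the lines no longer overlapped for MVP, A549-TIPARP being higher, and the difference was 0.50 (limma adjusted p = 0.353). Of these 5 partners 0 passed at an adjusted or an unadjusted p under 0.05 by limma, against 0.0152% and 3.85% of all analysed genes, and 4 were highest in A549-GFP replicate 2, against 52.0%. Without that library all 5 had a higher log2 mean in A549-TIPARP, against 57.4%, 2 of them, MVP and IRF9, had an unadjusted p under 0.05, against 10.5%, and the median difference moved from -0.03 to 0.23.

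Of 20 interferon-induced genes, 12 were analysed and 6 were at the lowest value in all libraries. The log2 mean of 10 of the 12 was lower in A549-TIPARP, against 60.4% of all analysed genes, with a median difference of -0.09. A549-GFP replicate 2 was the highest library for 9, against 52.0%. Without that library the count turned around, with a higher log2 mean in A549-TIPARP for 10 of the 12, all but OAS1 and OAS3, against 57.4% of all analysed genes, and a median of 0.30. In that fit 5 of the 12 had an unadjusted p under 0.05, against 10.5%, with IFI6, DDX58, IFIT1 and IFIT3 higher and OAS1 lower, and 0 had an adjusted p under 0.05. IFIT2 and IFIT3 had passed the filter only through A549-GFP replicate 2, at 4.53 and 4.23 TPM. Their remaining A549-GFP values were at the lowest value, and those of IFIT1 were 1.46 and 1.56 TPM. The results of these genes in that fit thus rest on values at or near the lowest value. With all libraries 0 of the 12 had an adjusted p under 0.05 and 1 had an unadjusted p under 0.05, against 0.0152% and 3.85% of all analysed genes. That gene was OAS1, an enzyme that activates RNase L on sensing double-stranded RNA, with 86.8, 77.2 and 92.3 TPM in A549-GFP and 46.6, 60.4 and 54.6 TPM in A549-TIPARP. Its libraries did not overlap, and its difference was -0.66 (standard error 0.18, limma adjusted p = 0.778), or -0.73 without A549-GFP replicate 2 (limma adjusted p = 0.225). The summed TPM of the whole list was 239 in A549-GFP replicate 2 and between 110 and 139 in the other 5 libraries, and its part in the values of PARP9, PARP12 and PARP14 was not tested.

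The last list held 14 genes around AHR, the receptor that induces TIPARP. Of these, 11 were analysed, the log2 mean in A549-TIPARP being higher for 4 and lower for 7, and the median difference was -0.11. The log2 mean was higher for 6 and lower for 5 without A549-GFP replicate 2, with a median of 0.05. CYP1A1 and CYP1A2, enzymes that activated AHR induces, and the AHR repressor AHRR were at the lowest value in all 6 libraries. CYP1B1, another enzyme that AHR induces, and ARNT2, a relative of the AHR partner ARNT, had the largest differences of the list and were chosen with their values in view. CYP1B1 was at 51.5, 85.7 and 31.2 TPM in A549-GFP and at 28.1, 42.3 and 22.2 TPM in A549-TIPARP, with overlap, a difference of -0.78 (limma adjusted p = 0.994) that became -0.42 without A549-GFP replicate 2. ARNT2 was at 3.77, 6.43 and 2.30 TPM in A549-GFP and at 5.83, 6.06 and 6.24 TPM in A549-TIPARP, with overlap and a difference of 0.53 (limma adjusted p = 0.994). It was 0.83 without A549-GFP replicate 2, with an unadjusted p of 0.00596 and a limma adjusted p of 0.266. AHR itself, chosen with its values in view, was at 17.3, 23.4 and 10.7 TPM in A549-GFP and 10.8, 10.9 and 12.4 TPM in A549-TIPARP, a difference of -0.49 (limma adjusted p = 0.994), or -0.25 without A549-GFP replicate 2. With all libraries 0 of the 11 had an adjusted p under 0.05 and 1 had an unadjusted p under 0.05, against 0.0152% and 3.85% of all analysed genes, the amino acid transporter SLC7A5. SLC7A5 had 820, 660 and 571 TPM in A549-GFP and 592, 486 and 397 TPM in A549-TIPARP, with overlap of the lines and a difference of -0.48 (standard error 0.20, limma adjusted p = 0.994). Its unadjusted p was 0.0458, and 0.0796 without A549-GFP replicate 2.

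The genes whose pattern over the 6 libraries was most like that of TIPARP were LINC00920, CAPN1, GIP, EMB and MT2A. Their log2(TPM + 1) had a Pearson r with TIPARP of 0.997, 0.994, 0.991, 0.991 and 0.989 over 6 libraries, which fall into the lines, so that r mostly reflects the gap between the lines. MT2A, a metallothionein, had 51.7, 53.6 and 39.7 TPM in A549-GFP and 116, 97.0 and 129 TPM in A549-TIPARP, a difference of 1.22 (limma adjusted p = 0.217). CAPN1, a calpain protease, differed by 0.30, and GIP, LINC00920 and EMB were at 1 to 1.54 TPM in A549-GFP cells. None of the 5 passed the test, with limma adjusted p of 0.179 or more.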

How the data were processed

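RNA was sequenced in 3 libraries each of A549-GFP and A549-TIPARP cells. The authors ran Strand NGS at default parameters on the paired-end NovaSeq reads, with the transcriptome of hg38, and deposited, per library, the log2 of the TPM of 53826 entries, with TPM under 1 set to 1. The software version, the annotation, the strand setting and the treatment of multi-mapping reads are not given in the sources used here. Libraries were grouped by sample title. TPM keeps no depth, so precision rests on the 3 libraries of each line.

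The deposited log2 values were turned back to TPM, and genes with TPM above 2 in at least 1 library were kept. The pseudocount of 1 lowers fold changes of genes with low TPM. Differences, standard errors and 95% intervals came from limma 3.58.1 in R 4.3.3 on log2(TPM + 1) with a variance trend, all 6 libraries and no block, with Benjamini-Hochberg adjustment over the 13181 genes. The script was tested on simulated data. The members and lists were chosen with earlier results of these data known. Genes named are all members, the other PARP family genes, from each list those with an unadjusted p under 0.05 or otherwise the 2 largest differences, and the 5 genes with the highest Pearson r with TIPARP. Some genes that this rule names are not reported here. Positions and promoters are those of RefSeq (GRCh38.p14), and exons and overlaps those of GENCODE 44. Alternatives were another pseudocount or none, other filters, rescaling, no trend, a replicate block and each library left out.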

Additional observations from a re-analysis of the deposited data

How the results depend on the processing

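The rise of TIPARP kept its direction in all 13 alternatives, and its adjusted p stayed under 0.05 in 6. On the deposited log2 values the difference was 4.11. It was 3.90, no longer past the threshold, without a filter on low values (adjusted p = 0.0965) and under a replicate block by experiment (adjusted p = 0.513). With each library left out it ran from 3.54 to 4.24. TIPARP and RBM14-RBM4, a read-through entry of RBM14 and RBM4 that was named after its values were seen, were the 2 genes called among all analysed genes, against 1 without a filter, 1 with the replicate block and 1 to 3 with each library left out. RBM14-RBM4 was lower in A549-TIPARP (difference -4.36, limma adjusted p = 9.15e-05). It was at 38.9, 42.1 and 39.5 TPM in A549-GFP and at the lowest value of 1 TPM in every A549-TIPARP library. In no alternative was another member or list gene called. The sign of uncalled differences turned as follows, and the cause was not tested. PARP3 went to 0.00053 with a pseudocount of 0.1, 0.0015 on the deposited values and 0.059 with rescaling, where PARP1 went to 0.053. With each library left out, differences ran from -0.19 to 0.13 for PARP1, -0.40 to 0.21 for PARP2, -0.50 to 0.056 for PARP4, -0.25 to 0.41 for PARP9, -0.13 to 0.32 for PARP12, -0.052 to 0.49 for PARP14, -0.38 to 0.16 for TNKS, -0.38 to 0.13 for TNKS2, -0.34 to 0.49 for PARP3, -0.65 to 0.17 for PARP6 and -0.28 to 0.12 for PARP15. The replicate block lost the call of TIPARP and no other. Same-numbered libraries deviated from their line with r of 0.415, -0.486 and -0.358, so that 1 of 3 pairs deviated together. Pairs with different numbers ran from -0.618 (A549-GFP replicate 1 with A549-TIPARP replicate 3) to 0.597 (A549-GFP replicate 2 with A549-TIPARP replicate 3). Deviations were taken from the mean of each line, so these r are not independent. The names of the deposited tables also carry other numbers than the titles, so what the block stands for is unsure. The number of libraries limits the precision, and the floor of 1 TPM hides changes of PARP10, PARP8 and PARP11.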

Other observations

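In the list of DNA break repair genes, TIMELESS, chosen with its values in view, was lowest in the libraries where PARP1 and PARP2 were lowest. The list was not uniform. Of its 12 genes, A549-GFP replicate 2 was the lowest of the 6 libraries for 4 and the highest for 3, against 13.7% and 52.0% of all analysed genes. In the order of replicates 1, 2 and 3, TIMELESS, a replication fork protein that binds PARP1, had 54.7, 12.3 and 41.0 TPM in A549-GFP and 40.6, 47.8 and 17.5 TPM in A549-TIPARP. The difference between the lines was 0.09 on log2(TPM + 1), with overlapping libraries, and -0.53 without A549-GFP replicate 2.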
